A study of Homo sapiens with 30 samples.

Results

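Early transcription, 1 h into treatment with recombinant bone morphogenetic protein 4 (BMP4), was examined in 5 established breast cancer lines of human origin, namely ZR-75-30, SK-BR-3, MDA-MB-361, HCC1954 and HCC1419. All arrays labelled with the 1 h time point were taken, which gave 5 of the 30 arrays of the series, 1 per cell line, and each was paired with the 30 min array of the same line. On every array, RNA of BMP4-treated cells carried the Cy5 dye, and RNA of cells of the same line kept with vehicle for the same time carried the Cy3 dye. Each channel held 1 RNA made from cells of 3 treatments that were pooled, so that the replicates of the comparison are the 5 lines and not repeated cultures of a line. Values are log2 ratios of BMP4 over vehicle, and the quantity tested for each probe was the ratio at 1 h minus the ratio at 30 min. No dye swap was made, and a constant preference of a probe for 1 dye cancels in this difference. A difference of 1 on this scale is a doubling of the ratio.

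BMP4 is a secreted ligand that brings type I and type II serine/threonine kinase receptors together. The activated receptors phosphorylate SMAD1, SMAD5 and SMAD8, which enter the nucleus with SMAD4 and act on the regulatory sequences of target genes. The first genes to respond need no new protein synthesis and include the inhibitor of DNA binding (ID) genes, whose products sequester basic helix-loop-helix transcription factors, and genes for inhibitory SMADs that restrain the pathway.

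Of 17 genes described below, 14 had an entry in a RefSeq table of human promoters (GRCh38.p14), and OVOL1, HEY1 and DLX3 had none. The 250 bases before the start of the ID genes with the clearest difference and of the inhibitory SMAD gene SMAD7 are shown because these genes are established targets of SMAD proteins. All are written 5′ to 3′ on the strand of the gene, and capitals mark GTCT, the letters that SMAD3 and SMAD4 are known to contact, or its reverse complement AGAC. For SMAD7 the table held 3 starts and the one farthest upstream is shown.
ID1 (chr20:31605039-31605288, plus strand): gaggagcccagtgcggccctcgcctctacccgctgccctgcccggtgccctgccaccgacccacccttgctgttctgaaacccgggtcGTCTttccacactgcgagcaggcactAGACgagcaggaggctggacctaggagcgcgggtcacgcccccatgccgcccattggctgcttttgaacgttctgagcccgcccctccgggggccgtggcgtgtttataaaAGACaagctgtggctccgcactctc
ID2 (chr2:8681806-8682055, plus strand): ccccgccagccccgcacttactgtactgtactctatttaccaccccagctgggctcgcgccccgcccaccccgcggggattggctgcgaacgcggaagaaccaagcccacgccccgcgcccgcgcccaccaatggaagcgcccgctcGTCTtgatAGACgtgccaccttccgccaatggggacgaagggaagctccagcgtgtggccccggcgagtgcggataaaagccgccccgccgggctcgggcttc
ID3 (chr1:23559502-23559751, minus strand): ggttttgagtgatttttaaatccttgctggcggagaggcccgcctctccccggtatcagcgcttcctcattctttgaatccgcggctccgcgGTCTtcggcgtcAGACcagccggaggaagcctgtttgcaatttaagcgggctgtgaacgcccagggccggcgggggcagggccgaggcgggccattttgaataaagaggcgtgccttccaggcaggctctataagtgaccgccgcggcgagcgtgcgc
SMAD7 (chr18:48950966-48951215, minus strand): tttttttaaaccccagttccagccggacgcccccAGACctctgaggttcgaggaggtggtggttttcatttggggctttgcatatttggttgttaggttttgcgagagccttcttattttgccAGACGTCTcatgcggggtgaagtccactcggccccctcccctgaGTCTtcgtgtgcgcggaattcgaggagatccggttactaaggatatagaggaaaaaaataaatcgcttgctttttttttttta

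These 4 letters are common. On either strand GTCT stood in 77.5% of the 35116 promoter windows of the table, with a median of 1 match, and in a window of 13 of the 14 genes found. The windows printed for ID1, ID2, ID3 and SMAD7 held 3, 2, 2 and 4 matches. The palindrome GGCGCC, known from SMAD1 binding sites, stood in 16.4% of all windows and in those of 3 of the 14 genes, BCOR, SOCS3 and DUSP2. GGAGCC on either strand was in 30.6% of all windows and in those of 7 of the 14 genes. A gene with more than 1 start was counted if any of its windows matched, whereas the percentages are per window, so the 2 are not on the same footing. A match is a description of the letters in the window and not a binding site.

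The arrays of SK-BR-3 and ZR-75-30 stood apart. The SD of the difference between 1 h and 30 min over all 41000 probes was 0.44 in ZR-75-30 and 0.38 in SK-BR-3, against 0.17 to 0.21 in the other lines. ZR-75-30 was also the line whose 30 min and 1 h arrays lay on different slides and were scanned on different days. Its slope of observed on expected spike-in log ratios was 0.59 at 1 h and 0.75 at 30 min, the lowest and highest of the 10 arrays. Whether this bears on its differences was not tested. At 1 h, 857 probes were 2-fold or more away from a ratio of 1 in ZR-75-30 against 13 to 208 in the other lines. In both lines a set of 324 probes moved far, defined after values were seen by a mean difference of at least 0.4 that missed an unadjusted p of 0.05. The median difference of the set was 2.49 for SK-BR-3, 1.53 for ZR-75-30, 0.32 in MDA-MB-361, −0.50 in HCC1419 and −0.62 in HCC1954. Of the probes named below, that of HES7 belonged to it. Over all probes the 1 h arrays of different lines correlated with Pearson r from −0.34 (HCC1954 with ZR-75-30) to 0.54 (MDA-MB-361 with ZR-75-30), and their differences from 30 min with r from −0.43 to 0.45. The dyes were assigned in the same way on all arrays according to the labels, so the direction of the ratio was kept.

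The cells were checked against markers of their label. The luminal epithelial genes KRT8, KRT18, KRT19, EPCAM, ERBB2 and GATA3 were above background in the vehicle channel of all 10 arrays, and the E-cadherin gene CDH1 on 8, those of SK-BR-3 being the exception. The fibroblast genes DCN, LUM and PDGFRB and the leukocyte gene PTPRC were above background on none of the 10. The leukocyte genes CD3E and CD14, the endothelial gene VWF and the basal keratin gene KRT14 were above background on all 10, and the collagen gene COL1A1 on 8. None of these markers differed between 1 h and 30 min (smallest limma adjusted p 0.767). Each ratio averages all cells of a culture, so that fewer cells of a kind and less RNA per cell cannot be told apart.

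The first question was which genes had moved by 1 h in all or most lines. With limma, 1 of 41000 probes was higher at 1 h than at 30 min at an adjusted p under 0.05 (0.00244% of those tested), and none was lower. At an unadjusted p under 0.05 there were 1208 higher (2.95%) and 1316 lower (3.21%). The called probe measured OVOL1. The next 9 probes by p value, all higher at 1 h, had adjusted p values from 0.0594 to 0.153 and measured ID3, BCOR, the expressed sequence tag BF366211 near SMAD7, SOCS3, IER5L, ID1, ID2, OVOL1 again and SMAD7. Among 21304 probes above background on all 10 arrays, a test restricted to these probes called 8, namely ID1, ID2, ID3, BCOR, SOCS3, IER5L, the second OVOL1 probe and the tag. The called OVOL1 probe was not in that set because it was above background on 8 of the 10 arrays.

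**Figure D1:**
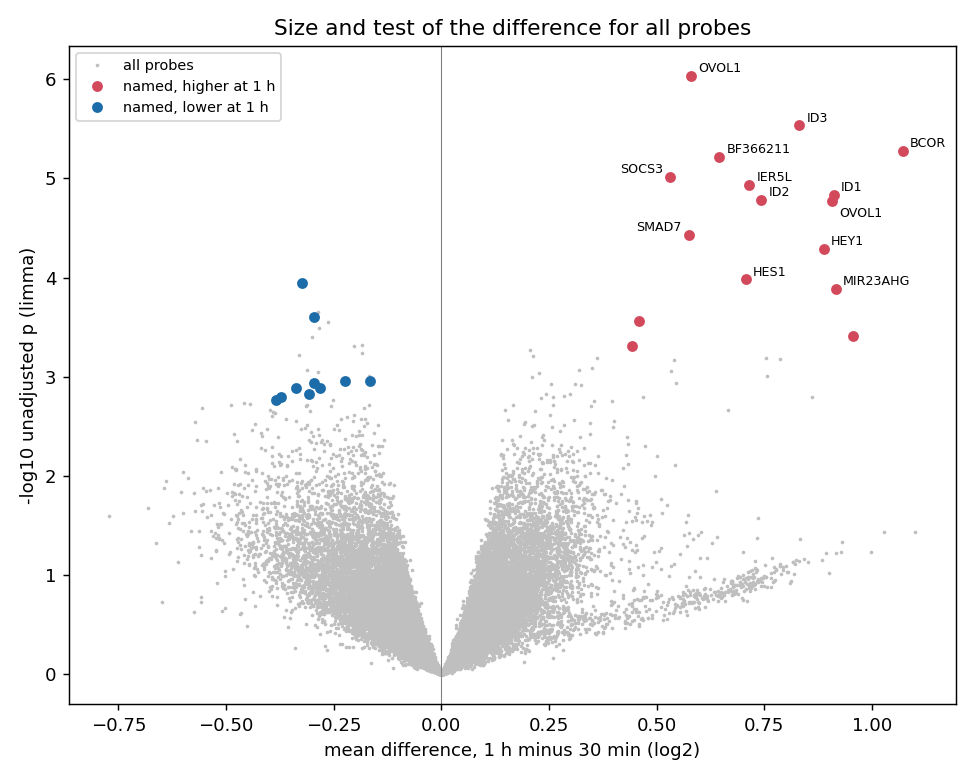
Mean difference between 1 h and 30 min over the 5 lines (x axis, log2 scale) against −log10 of the unadjusted limma p (y axis) for all 41000 probes. Red points are the 16 probes named as higher, with OVOL1 uppermost, and blue points the 10 named as lower, which end at −0.38 while the red points reach 1.07 (BCOR). The arm of grey points on the right at low −log10 p has large means and a large spread between lines.

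In 16 probes named as higher, the difference was positive in all 5 lines, which held for 2.75% of the 40676 probes measured on all 10 arrays. In 9 of the 16 all 5 values at 1 h lay above all 5 values at 30 min, against 0.258% of all probes. The 16 probes were chosen from the same contrast, so that these counts describe them and carry no test.

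The ID genes had the largest median difference of the 10 gene lists examined. ID3 (chromosome 1, 23758253 to 23758312, hg18) went between 30 min and 1 h from 0.05 to 1.12 in HCC1419, from 0.01 to 0.68 in HCC1954, from 0.21 to 1.08 in MDA-MB-361, from −0.17 to 0.33 in SK-BR-3 and from −0.05 to 0.99 in ZR-75-30. All lines were higher at 1 h, SK-BR-3 least, and the groups of values did not overlap. The mean difference was 0.83 ± 0.14 (SE, 1.78-fold, adjusted p 0.0594).

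For ID1 (chromosome 20, 29657819 to 29657878) the ratio went from 0.51 to 1.81 in HCC1419, from 0.39 to 1.30 in HCC1954, from 0.29 to 1.85 in MDA-MB-361, from 0.35 to 0.65 in SK-BR-3 and from 0.56 to 1.06 in ZR-75-30. It was already positive at 30 min in every line. SK-BR-3 was again lowest, and its 1 h value still exceeded the highest 30 min value. The difference of 0.91 ± 0.17 (adjusted p 0.0763) was carried most by MDA-MB-361 (1.55) and HCC1419 (1.30). An expressed sequence tag whose probe lies 788 bases from the ID1 probe, CN479126, was higher in 4 lines, by 0.73 to 1.35, and differed by −0.12 in HCC1954.

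ID2 was measured by 2 probes. At the probe with the smaller p (chromosome 2, 8740093 to 8740481) the ratio went from −0.16 to 1.21 in HCC1419, from 0.19 to 0.95 in HCC1954, from 0.31 to 1.02 in MDA-MB-361, from −0.09 to 0.73 in SK-BR-3 and from 0.24 to 0.29 in ZR-75-30. It was higher at 1 h by at least 0.71 in 4 lines, whereas ZR-75-30 differed by only 0.05 and made the groups overlap. The mean difference was 0.74 ± 0.14 (adjusted p 0.0763). The other probe showed the same order at the extremes, with 1.84 in HCC1419 and 0.04 in ZR-75-30, and a mean of 0.86 ± 0.24 (adjusted p 0.767).

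ID4 behaved less uniformly at this time. Its difference was 1.17 in HCC1419, 0.91 in MDA-MB-361 and 0.06 in HCC1954, but −0.09 in ZR-75-30 and −0.47 in SK-BR-3, with a mean of 0.31 ± 0.17 (adjusted p 0.767). By 3 h its mean ratio was 1.17, against 0.49 at 1 h. A tag 902 bases from the ID3 probe, AW327568, had a mean difference of 0.96 ± 0.23 (adjusted p 0.766), with values between 0.07 in HCC1954 and 1.78 in ZR-75-30.

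OVOL1 encodes a zinc finger transcription factor of epithelial tissues. At the called probe (chromosome 11, 65320058 to 65320117) the ratio went from −0.01 to 0.44 in HCC1419, from −0.13 to 0.67 in HCC1954, from 0.13 to 0.69 in MDA-MB-361, from −0.14 to 0.44 in SK-BR-3 and from 0.07 to 0.58 in ZR-75-30. The groups did not overlap, and the lines lay close together, with differences from 0.45 to 0.80. OVOL1 rose by 0.58 ± 0.09 (adjusted p 0.0378). The call was lost when HCC1419, HCC1954, MDA-MB-361 or ZR-75-30 was left out. It held in 6 of the 16 alternatives computed for this probe (limma adjusted p 0.00575 to 0.934), and the mean stayed positive in all 16.

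The brighter OVOL1 probe (chromosome 11, 65321095 to 65321154), above background on all 10 arrays, had larger differences, which from high to low were 1.55 in HCC1419, 1.07 in MDA-MB-361, 0.85 in HCC1954, 0.82 in ZR-75-30 and 0.26 in SK-BR-3. Its mean of 0.91 ± 0.17 (adjusted p 0.0763) was higher in every line, and the 1 h values (0.43 to 1.46) did not overlap those at 30 min (−0.09 to 0.18).

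Feedback inhibitors of signaling formed the next group. SMAD7 blocks the receptors and recruits ubiquitin ligases to them. Its probe (chromosome 18, 44700780 to 44700839) went from −0.03 to 1.15 in HCC1419, from 0.11 to 0.68 in HCC1954, from −0.09 to 0.79 in MDA-MB-361, from 0.36 to 0.60 in SK-BR-3 and from 0.03 to 0.04 in ZR-75-30. SMAD7 was high at 1 h everywhere except ZR-75-30, which differed by 0.01. The mean difference was 0.58 ± 0.11 (adjusted p 0.153, range 0.00262 to 1.00 over 17 alternatives). With SK-BR-3 and ZR-75-30 both left out it was 0.88 ± 0.10. That setting was chosen after the data were seen and drops the lines with the smallest SMAD7 differences, so it carries no test.

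The tag BF366211 (chromosome 18, 44731599 to 44731658) lies 30819 bases from the SMAD7 probe, and RefSeq gives the SMAD7 gene a length of 31113 bases on GRCh38.p14. Its ratio went from 0.01 to 0.58 in HCC1419, from −0.21 to 0.59 in HCC1954, from 0.22 to 1.00 in MDA-MB-361, from −0.18 to 0.54 in SK-BR-3 and from 0.28 to 0.63 in ZR-75-30. The groups did not overlap, and ZR-75-30 was higher here by 0.35. The mean difference was 0.65 ± 0.11 (adjusted p 0.0621). By the array's coordinates its probe is on the plus strand and the SMAD7 probe on the minus strand. The tags near ID1 and ID3 likewise have probes on the strand opposite to the gene's.

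SOCS3 encodes a suppressor of cytokine signaling that acts on JAK kinases. Its ratio went from −0.06 to 0.34 in HCC1419, from 0.22 to 0.50 in HCC1954, from 0.21 to 0.79 in MDA-MB-361, from 0.27 to 0.80 in SK-BR-3 and from 0.21 to 1.07 in ZR-75-30. Each line was higher at 1 h than any line at 30 min. The difference was 0.53 ± 0.09 (adjusted p 0.0763), largest in ZR-75-30 (0.87), the line in which SMAD7 and ID2 hardly differed. A dimmer second SOCS3 probe had a mean difference of 0.12 ± 0.06 (adjusted p 0.767).

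DUSP2, a nuclear phosphatase of MAP kinases, went from 0.01 to 0.82 in HCC1419, from 0.05 to 0.46 in HCC1954, from 0.28 to 1.40 in MDA-MB-361, from −0.30 to 0.51 in SK-BR-3 and from 0.03 to 0.81 in ZR-75-30. It was higher in every line, by at least 0.41, and without overlap. The mean was 0.79 ± 0.20 (adjusted p 0.767). The standard error comes from the residual spread over all 30 arrays, and at 24 h the DUSP2 ratio ran from 0.30 in HCC1954 to 2.36 in MDA-MB-361.

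HEY1 and HES1 encode hairy-related repressors, best known as targets of Notch and shared with BMP signaling in other cell types. HEY1 went from 0.04 to 1.27 in HCC1419, from −0.08 to 0.24 in HCC1954, from −0.22 to 1.26 in MDA-MB-361, from 0.55 to 0.85 in SK-BR-3 and from 0.46 to 1.58 in ZR-75-30. HCC1954 stayed low, below the 30 min values of SK-BR-3 and ZR-75-30, so that the groups overlapped. The mean difference was 0.89 ± 0.18 (adjusted p 0.191).

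HES1 went from −0.01 to 1.32 in HCC1419, from 0.09 to 0.52 in HCC1954, from 0.35 to 1.18 in MDA-MB-361, from −0.22 to 0.31 in SK-BR-3 and from 0.45 to 0.87 in ZR-75-30. At this probe all lines were higher, SK-BR-3 was lowest at both times, and the groups overlapped. Its difference was 0.71 ± 0.15 (adjusted p 0.354). The other HES1 probes ordered the lines differently. One had a mean of 0.54 ± 0.14, with −0.05 in ZR-75-30 and 0.96 in SK-BR-3, and the other a mean of 0.36 ± 0.15, with −0.23 in ZR-75-30 and −0.08 in SK-BR-3 (adjusted p 0.767 for both).

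Of the remaining genes the largest mean belonged to BCOR, which encodes a corepressor of BCL6. At the probe at chromosome X, 39816216 to 39816275, the ratio went from 0.18 to 1.23 in HCC1419, from 0.10 to 1.54 in HCC1954, from −0.01 to 1.32 in MDA-MB-361, from −0.19 to 1.29 in SK-BR-3 and from 0.45 to 0.50 in ZR-75-30. The first 4 lines were higher by 1.05 to 1.48 and ZR-75-30 by 0.05, still without overlap of the groups. The mean difference was 1.07 ± 0.18 (2.10-fold, adjusted p 0.0621, range 0.000988 to 1.00 over 17 alternatives). The lowest of these p values came from leaving out ZR-75-30. That line had the smallest difference, so leaving it out raises the mean by itself (1.33 ± 0.14). The other BCOR probes gave smaller values. Their mean differences were −0.15 ± 0.08 (adjusted p 0.767) and 0.12 ± 0.13 (adjusted p 0.855), and they lie 9051 and 19912 bases away.

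MIR23AHG is the host transcript of the miR-23a cluster and is named LOC284454 on the array. Its ratio went from 0.27 to 1.22 in HCC1419, from 0.23 to 0.82 in HCC1954, from 0.15 to 1.07 in MDA-MB-361, from −0.56 to 1.25 in SK-BR-3 and from 0.13 to 0.44 in ZR-75-30. The groups did not overlap. The mean was 0.92 ± 0.20 (adjusted p 0.378), with 1.81 in SK-BR-3, whose 30 min value was low. A second, dimmer probe had a mean of 0.19 ± 0.11 (adjusted p 0.767). The host transcript does not measure the mature miRNAs.

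IER5L, a paralog of the immediate early gene IER5, went from −0.14 to 0.35 in HCC1419, from −0.34 to −0.04 in HCC1954, from 0.01 to 0.76 in MDA-MB-361, from −0.50 to 0.62 in SK-BR-3 and from −0.24 to 0.68 in ZR-75-30. All lines were higher but HCC1954 at 1 h lay just below MDA-MB-361 at 30 min. The difference was 0.72 ± 0.13 (adjusted p 0.0763), and at 30 min 4 lines were below 0.

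Genes with smaller means were SERTAD1, a transcriptional coregulator of the cell cycle, at 0.46 ± 0.11 (adjusted p 0.636), and BMF, a proapoptotic BCL2 family member, at 0.44 ± 0.11 (adjusted p 0.767). BMF was higher by 1.13 in ZR-75-30 and by 0.13 in both HCC1419 and HCC1954. JUNB, an AP-1 subunit given here by the brighter of its 2 probes, was already at 0.28 to 0.51 in all lines at 30 min. It was higher at 1 h by 1.06 in HCC1419 and 1.02 in MDA-MB-361, by 0.43 in ZR-75-30, and by only 0.15 in HCC1954 and 0.01 in SK-BR-3, with a mean of 0.53 ± 0.14 (adjusted p 0.767). The 1 h values of JUNB overlapped those at 30 min.

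**Figure D2:**
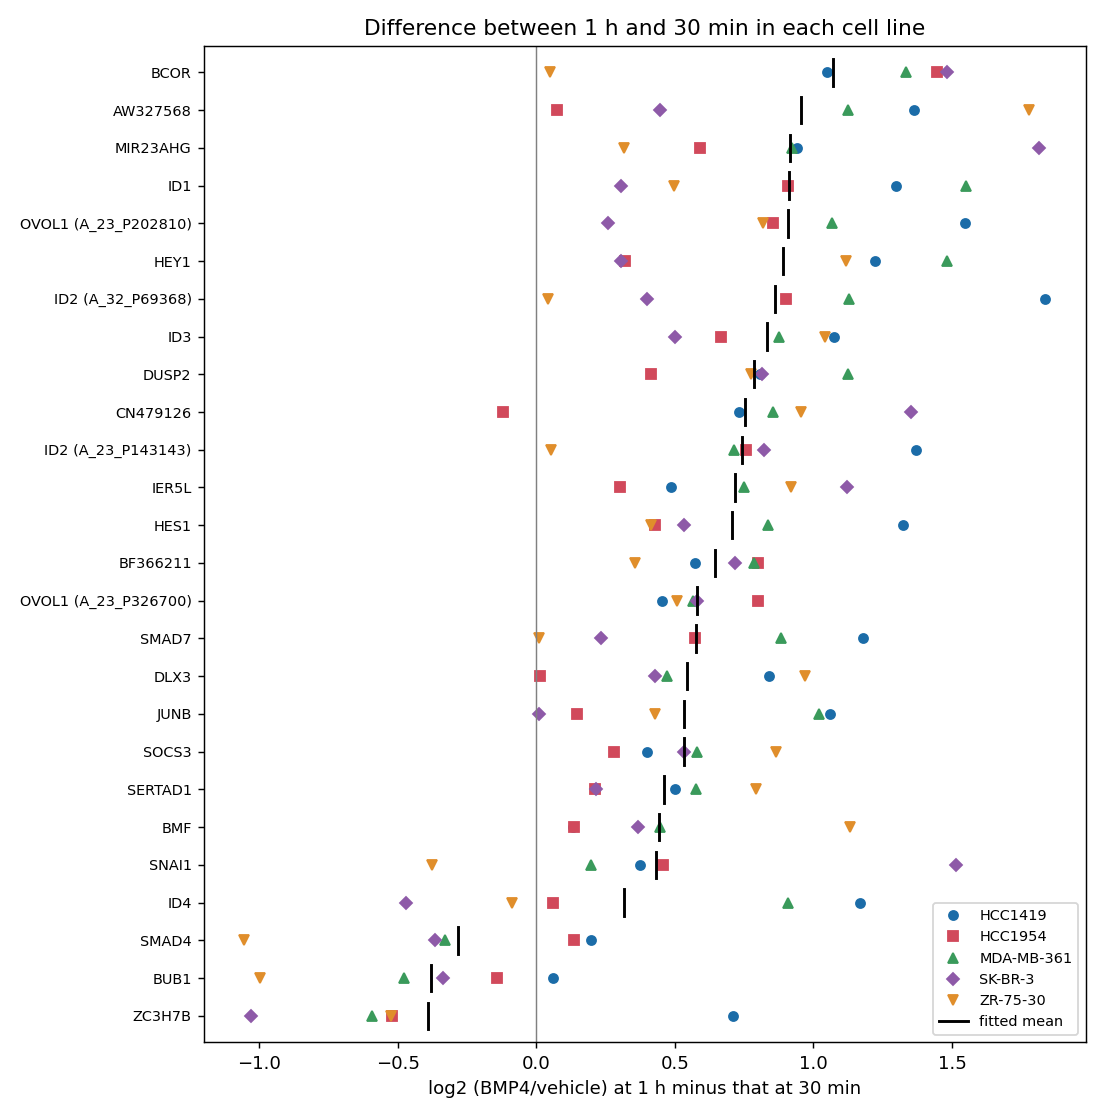
Difference in log2 ratio between 1 h and 30 min (x axis) for named probes (y axis, ordered by mean), with 1 symbol per cell line and a black bar at the fitted mean. All 5 symbols lie right of 0 for ID1, ID2, ID3, OVOL1, SOCS3, HEY1, HES1 and DUSP2, and ZR-75-30 lies near 0 for BCOR, ID2 and SMAD7.

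A rule of size did not use the test. Of the 21304 probes above background on all 10 arrays, 8 were higher by at least 0.5 in at least 4 lines (0.0376%) and 1 was lower (0.00469%). The 8 measured ID2, ID3, OVOL1, BCOR, DUSP2, MIR23AHG, BF366211 and CN479126. Just inside the threshold BF366211 had a fourth-largest difference of 0.57, and just outside it ID1 had 0.50 (0.496 before rounding) and IER5L 0.49. The probe on the other side measured ZC3H7B, with −1.03 in SK-BR-3, −0.59 in MDA-MB-361, −0.53 in ZR-75-30 and −0.52 in HCC1954 but 0.71 in HCC1419, and a mean of −0.39 ± 0.27 (adjusted p 0.779). With a threshold of 1 in place of 0.5 the count was 1 (0.00469%), the BCOR probe.

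The other genes of the pathway and of early responses were taken from 10 lists with 184 genes in all. Of these, 183 had a probe. No gene of any list was called by limma, against 0.00244% of all probes, and at an unadjusted p under 0.05 18 of the 183 were higher, against 2.95% of all probes, and 5 were lower, against 3.21%. The ID list had a median difference of 0.85, with 4 of 4 genes higher on average and 3 of 4 higher in all 5 lines. The median of all probes was 0.0046. Its median within a line ran from 0.27 in ZR-75-30 and 0.35 in SK-BR-3 to 1.23 in HCC1419.

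The list of hairy and Notch-linked basic helix-loop-helix genes had a median of 0.14, and 12 of its 14 measured genes were higher on average, against 51.9% of all probes. Only 7 of the 14 were above background on all 10 arrays. Only 2, HEY1 and HES1, were higher in all 5 lines, against 2.75% of all probes. Some of the 12 were close to 0, such as BHLHE41 at 0.0025. Apart from HEY1 and HES1 the largest value of the list was HES7, with 0.66 ± 0.48 (adjusted p 0.791). By line HES7 differed by 3.36 in SK-BR-3, 0.97 in ZR-75-30, 0.33 in MDA-MB-361, −0.54 in HCC1419 and −0.82 in HCC1954. The remaining lists lay near 0. Medians were −0.04 for 12 inhibitory SMADs and intracellular feedback genes, in which SMAD7 was the exception, and −0.01 for 14 secreted antagonists. Only 3 of the 14 antagonists were above background on all 10 arrays, so their median mostly describes dim probes and does not show whether these genes responded. SMAD6, the inhibitory SMAD of the BMP branch, differed by 0.15 ± 0.14 (adjusted p 0.824).

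Receptors and receptor SMADs had a median of −0.02 over 15 genes, 10 of them above background on all 10 arrays. SMAD4, the shared partner of receptor SMADs, had the smallest p of this list with −0.28 ± 0.14 (adjusted p 0.767), a value that came from −1.05 in ZR-75-30 and turned to 0.00 with SK-BR-3 and ZR-75-30 both left out. Homeobox and other developmental BMP targets had a median of 0.02 over 22 genes, 12 of them above background on all 10 arrays. Their lead was DLX3, a homeobox gene of epidermis and placenta, with 0.54 ± 0.15 (adjusted p 0.767) and all 5 lines higher, from 0.01 in HCC1954 to 0.97 in ZR-75-30. This probe, the brighter of 2 for DLX3, was above background on 8 of the 10 arrays, and the other probe is not described here.

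The 43 immediate early genes had a median of 0.01 and 23 were higher on average. FOS, the prototype of serum-induced genes, differed by 0.03 ± 0.12 (adjusted p 0.972), against 0.53 for JUNB. The 16 MAP kinase phosphatases and Sprouty genes had a median of −0.06 with 4 higher, with DUSP2 at 0.79. TGF-beta SMAD2/3 targets had a median of 0.06 over 19 genes, 11 of them above background on all 10 arrays. Their lead was SNAI1, a repressor of epithelial genes, with 0.43 ± 0.17 (adjusted p 0.767) and a difference of 1.51 in SK-BR-3. For 24 mitosis genes the median was −0.06, and the lead was the spindle checkpoint kinase BUB1 with −0.38 ± 0.15 (adjusted p 0.767). GREM1, the lead of the antagonists, was above background on 1 of 10 arrays and its 0.13 ± 0.06 (adjusted p 0.767) is close to background.

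**Figure D3:**
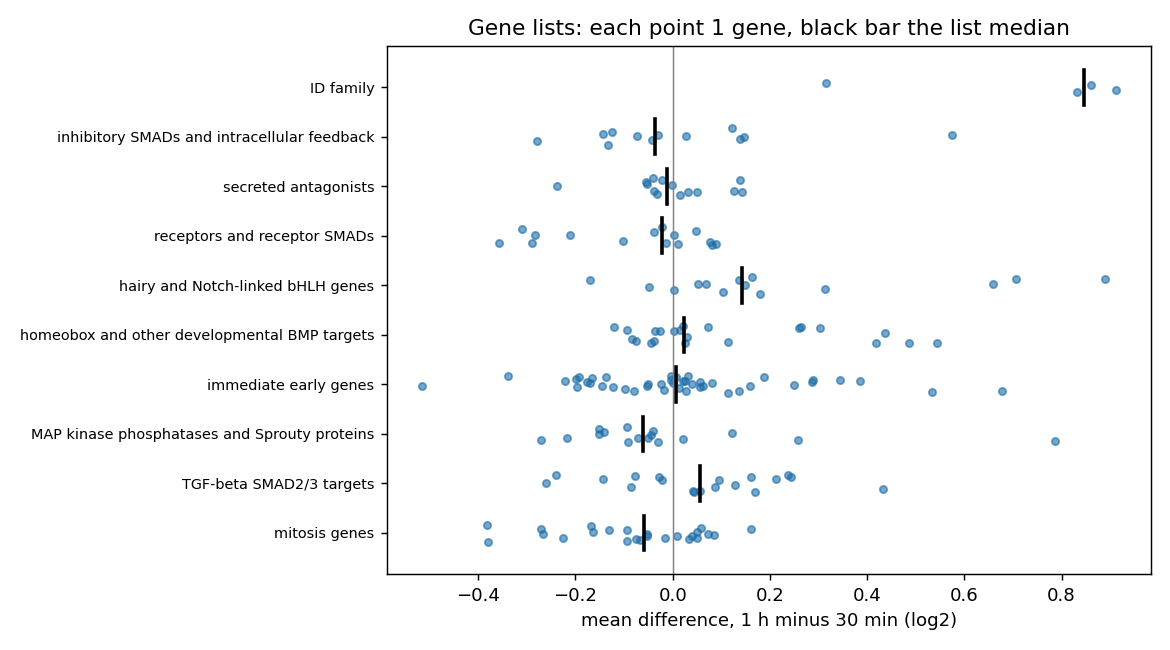
Mean difference between 1 h and 30 min over the 5 lines (x axis, log2 scale) of every measured gene in 10 gene lists (y axis), 1 point per gene, with the list median as a black bar. The ID median stands at 0.85 and the medians of the other lists lie between −0.06 and 0.14.

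None of the probes lower at 1 h passed the test. The 10 named by the smallest p had means from −0.17 to −0.38. Lower values in all 5 lines held for 2.23% of all probes, and 1 h values entirely below those at 30 min for 0.253%. The first was the gene model LOC649459 (−0.32 ± 0.07, adjusted p 0.355), lower in every line. AGO1, an argonaute protein of RNA silencing, was lower by 0.10 to 0.28 in 4 lines and by 0.73 in SK-BR-3 (mean −0.30 ± 0.07, adjusted p 0.636). PGGT1B, a subunit of the geranylgeranyl transferase, differed by −0.22 ± 0.06 (adjusted p 0.767), and all its values at 1 h lay below those at 30 min. GAB1, an adaptor of receptor tyrosine kinases, PLK2, a polo-like kinase, and MOB1A, of the Hippo pathway, had means of −0.30, −0.34 and −0.38 (adjusted p 0.767 for each). TRIL had no value on the 1 h array of ZR-75-30, and its −0.31 ± 0.09 rests on 4 lines at that time.

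The genes of the first hour then took different courses. Limma's comparison of 3 h with 1 h called 1 probe lower (0.00244% of 41000) and none higher, with 801 lower and 1100 higher at an unadjusted p under 0.05. The called probe was SOCS3. Its mean ratio fell from 0.70 ± 0.29 (SD, n = 5 lines) at 1 h to 0.09 ± 0.17 at 3 h, a difference of −0.61 ± 0.09 (adjusted p 0.0492), and it was 0.11 at 24 h. The call at 3 h was lost on leaving out any 1 line. HES1 was lower at 3 h by 0.91 ± 0.15, a mean ratio of −0.07 (adjusted p 0.0731). BCOR went from 1.18 at 1 h to 0.17 at 3 h (difference −1.01 ± 0.18, adjusted p 0.117).

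The called OVOL1 probe went from 0.56 to 0.07 at 3 h (adjusted p 0.117) and had fallen at 24 h by 0.46 ± 0.09 (adjusted p 0.0460). The OVOL1 call was lost without HCC1419, HCC1954, MDA-MB-361 or ZR-75-30. OVOL1 and SOCS3 were the 2 probes called lower at 24 h than at 1 h (0.00488%), against 24 called higher (0.0585%), none of which was among the probes named at 1 h. The SOCS3 call at 24 h (adjusted p 0.0101) was lost without HCC1954, MDA-MB-361 or SK-BR-3, and among the processing alternatives it held with outlier spots kept, array weights and probes above background only. The brighter OVOL1 probe was at 0.98 at 1 h and at 0.53 on the arrays of both 3 h and 24 h. MIR23AHG went from 0.96 to 0.18, IER5L from 0.47 to −0.01 and SNAI1 from 0.36 to −0.13 at 3 h (adjusted p 0.989 for each). SMAD7 and its neighbouring tag were intermediate, SMAD7 going from 0.65 to 0.33 and the tag from 0.67 to 0.28. HEY1 went from 1.04 to 0.87 at 3 h, with 0.75 on the 24 h arrays.

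The ID genes and DUSP2 had mean ratios at 24 h no lower than at 1 h. The values at 1 h and 24 h were 1.33 and 1.42 for ID1 and 0.84 and 1.01 for ID3, while DUSP2 was at 0.80 at 1 h and 1.16 at 12 h. ID2 went from 0.84 at 1 h to 1.30 at 3 h and ID4 from 0.49 to 1.17 (adjusted p 0.989 for both). In ZR-75-30 the first ID2 probe, at 0.29 at 1 h, was at 1.48 at 3 h, within the range of the other lines. These comparisons share the 1 h arrays with the difference from 30 min, so that a high value at 1 h enters both.

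**Figure D4:**
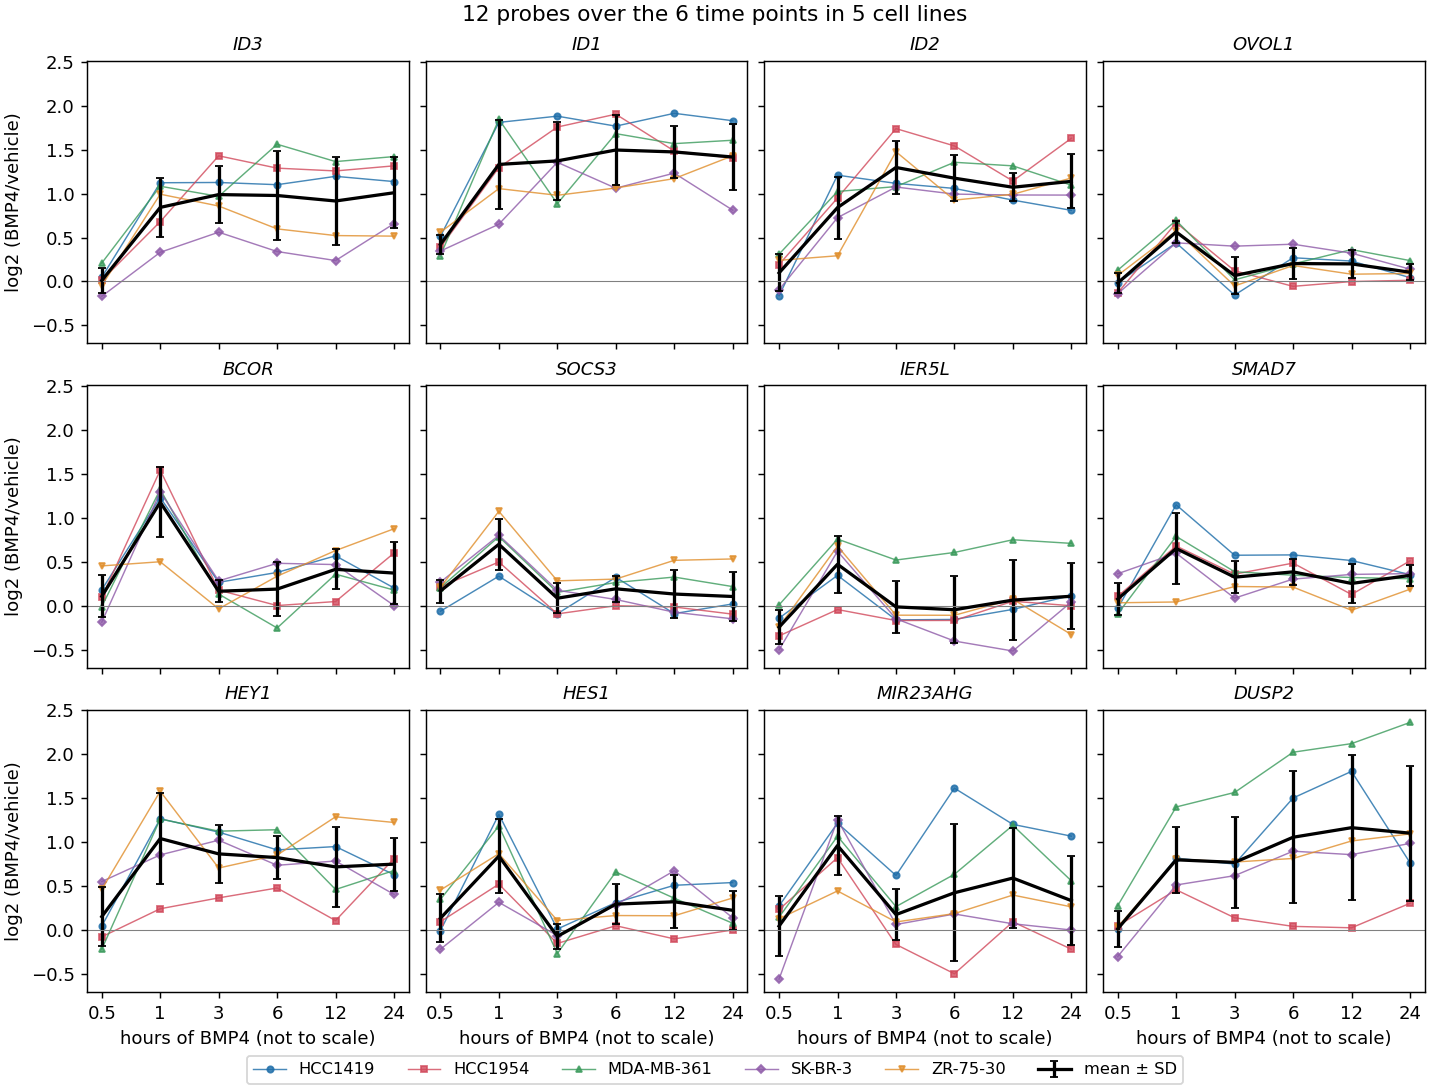
Log2 ratio of BMP4 over vehicle (y axis) at 6 times after addition (x axis, hours, not to scale) for 12 probes, with 1 thin line per cell line and the mean ± SD of the 5 lines in black. BCOR, SOCS3, HES1 and the called, dimmer OVOL1 probe peak at 1 h and have means of −0.07 to 0.17 at 3 h, while ID1, ID2, ID3 and DUSP2 are no lower on average at 24 h than at 1 h.

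Tested against a ratio of 0 rather than against 30 min, 251 probes were higher (0.612%) and 148 lower (0.361%) at 1 h in limma, counts which may include dye bias. Of the 16 probes named as higher, 12 were among the former. They were chosen by a difference that uses the same 1 h arrays, so this count describes them and carries no test. The ratio at 1 h was 1.33 for ID1 (adjusted p 3.46e-05) and 0.98 for JUNB, which passed this test and was at 0.44 at 30 min. IER5L, SERTAD1, BMF and the tag near ID3 did not pass against 0 (adjusted p 0.129 for IER5L).

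The lines differed in which genes moved. HCC1419 had the largest differences for ID2, ID3, ID4, HES1 and JUNB and MDA-MB-361 for ID1 and HEY1. SK-BR-3 had the smallest for ID1, ID3, HEY1 and JUNB but the largest for BCOR, IER5L and MIR23AHG. ZR-75-30 had the largest for SOCS3, SERTAD1 and BMF and the smallest for BCOR, ID2, SMAD7 and MIR23AHG. With 1 array per line and time these are single values, and differences between lines were not tested.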

How the data were processed

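RNA of BMP4-treated (Cy5) and vehicle-treated (Cy3) cells was hybridised to two-colour Agilent whole human genome arrays. The authors scanned the slides and ran Feature Extraction, version 9.5.1.1 with build hg18 per the file headers. Per the file headers, each spot has a mean signal and a median local background, both intensity on a linear scale and not normalized. The software of the authors also gave a log10 ratio of Cy5 over Cy3 from signals it had background-subtracted and dye-normalized. In the deposited series matrix each probe has a log2 ratio, which followed these processed signals (lowest Pearson r 0.9998 over the arrays).

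Here intensities were corrected by normexp (offset 50) and normalized by loess within arrays with limma 3.58.1 in R 4.3.3. The 1639 control spots of 45015 had weight 0, outlier spots were set to missing, and spots were averaged over 41000 probes. Symbols were updated through RefSeq (GRCh38.p14) for 28539 probes. Time points were compared over all 30 arrays by lmFit and eBayes, with cell line in the model as block and Benjamini-Hochberg adjustment over all probes, and called at an adjusted p under 0.05. The ratio at 1 h against 0 was fitted without the block. Replicate numbers pair arrays because each is 1 line. Deviations from the time-point means of the 30 min and 1 h arrays of a line correlated with r from −0.31 to 0.49. With 5 pairs an exact sign-flip test of a single probe cannot go below p = 0.0625, so none is given. On simulated independent normal noise, with the same shift added in every line, the median estimates were close to the shifts added. Real lines differed in their shifts, so this simulation does not show how many real changes would be called.

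Named were ID1 to ID4, the 15 probes with the largest support among rises (called or, as fewer were called, by smallest p) and 10 among falls, with 1 sign in at least 4 lines and signal above background on all 10 arrays, called probes, and the gene with the smallest p of each list. Other probes of these genes and those of the size rule were added. The genes, lists and rules were chosen with earlier results of these data known. Alternatives were other backgrounds and normalizations, filters, weights, blocks and leaving out each line.

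The number of arrays limits the precision. On the 10 arrays 59.1% to 70.0% of probes were above background, and the SD of the log2 ratio over spots of 1 probe was 0.05 to 0.11. The slope of observed on expected spike-in log ratios was 0.59 to 0.75, so that ratios were compressed. Both ends of this range were ZR-75-30 arrays, 0.59 at 1 h and 0.75 at 30 min. Exon annotation for hg18 was not used here.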

Additional observations from a re-analysis of the deposited data

Results flagged for a closer look

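In 4 of 86 groups of 5 values, 1 cell line lay far from the others by the gap to its neighbour relative to the whole range, where chance sets apart about 1 in 20. The count is near that share, so the cases are descriptions only. The groups are also not independent, as the differences and the 1 h ratios of a probe share arrays. At 1 h the tag BF366211 near SMAD7 had a ratio of 1.00 in MDA-MB-361, with the other lines between 0.54 and 0.63. The difference of AGO1 was −0.73 in SK-BR-3 against −0.28 to −0.10 elsewhere. PLK2, a polo-like kinase, was at −0.45 in SK-BR-3 at 1 h, and the other lines lay between −0.21 and −0.19. ZR-75-30 had 857 probes at 2-fold or more at 1 h, the other lines 13 to 208.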

How the results depend on the processing

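For 1 h minus 30 min, 1 probe was called by limma with the line as replicate block and 3 with no replicate block. It was 8 for probes above background on all 10 arrays, 14 with array weights, 5 with scan day added, 6 with slide added, 3 with SK-BR-3 and ZR-75-30 both left out (the last 2 chosen after seeing the data) and 0 to 2 on leaving out 1 line. No probe was called with the software log ratio, the series matrix, 1 factor per array in place of loess, scaled ratios or only the arrays compared, where the means of the 16 named probes kept their sign. The 43 named probes kept their sign in all alternatives except a second BCOR probe, −0.0135 to 0.220 on leaving out 1 line, and SMAD4, 0.00064 with SK-BR-3 and ZR-75-30 both left out. The 16 probes named as higher were positive in all 5 lines, so leaving out lines could not turn their means. Dropping the block, the other arrays or the dim probes leaves the mean of a fully measured probe unchanged. The kept signs therefore describe the probes and carry no test.

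In the order software log ratio, series matrix, 1 factor per array, scaled ratios and array weights, probes called were 178, 111, 27, 31 and 109 at 1 h against 0 (399 in the fit reported), and without weights 953, 973.8, 528.4 and 49.6 were 2-fold at 1 h on average (258.6) and 16, 15, 40 and 28 passed the size rule (9). At 1 h against 0 there were 250 for probes above background, 1036 with the replicate block, 0 with only the 5 arrays, and 97 to 290 leaving out 1 line. For 3 h minus 1 h (1 probe) the counts were 0 for the first 4 settings, no replicate block, only the arrays compared and slide, 2 for probes above background, 4 with array weights, 3 with scan day and 0 to 3 without 1 line. For 24 h minus 1 h (26) they were 0 with 1 factor per array, no replicate block or only the arrays compared, 7 scaled, 71 with array weights, 17 with scan day, 3 with slide and 0 to 19 without 1 line. Without 1 line 2-fold probes were 109 to 320 and the size rule gave 1 to 5, and it gave 45 at 0.3 and 1 at 1. List medians moved beyond their SD over lines in 11 of 110 alternatives, for homeobox genes to −0.00224, 0.167 and, on leaving out 1 line, 0.0111 to 0.0648, TGF-beta targets to 0.0895, 0.0275 and 0.129, mitosis genes to 0.0893 and 0.0229, immediate early genes to 0.167 and hairy genes to 0.314. Where limma called 0 probes, 175 to 3925 had an unadjusted p under 0.05. The causes were not tested.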

Other observations

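The 324 probes with a large mean difference but a large spread between lines were chosen on the 30 min and 1 h arrays. On the later arrays their median ratio ran from −1.42 in HCC1419 to 0.72 in ZR-75-30 at 3 h, and from −0.75 in SK-BR-3 to 0.83 in MDA-MB-361 at 6 h. At 12 h it ran from −1.97 in SK-BR-3 to 1.22 in MDA-MB-361, and at 24 h from −0.37 in HCC1954 to 1.13 in MDA-MB-361. Signal was above background on all 10 arrays of 30 min and 1 h for 319 of the probes, and 4 probes of the gene lists were among them.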
